A study of Mus musculus with 8 samples.

Results

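Adrenergic and dopamine receptor genes were described in RNA of mice that drank morphine and of control mice. The RNA was purified for mu opioid receptor (MOR)-expressing neurons from gross dissections aimed at the paraventricular nucleus of the thalamus (PVT). The 9 genes Adra1a, Adra1b, Adra1d, Adra2a, Adra2b, Adra2c, Adrb1, Drd2 and Drd3 were taken by name from a table of read counts for 18939 genes, and all 9 were found, each with 1 row. RNA came from Translating Ribosome Affinity Purification (TRAP), in which a GFP-tagged ribosomal protein, EGFP-L10a, is switched on by Cre and its ribosomes are pulled down with antibodies against GFP. Mice of both groups carried OPRM1cre X EGFP-L10a on a C57Bl/6J background, with Cre placed in the Oprm1 gene, and were 8 to 12 weeks old at the start of the experiment. For 11 days the morphine group was given morphine to drink, at 0.3 mg/ml at first and later at 0.5 mg/ml, dissolved in 0.2% saccharin, and mice of the control group, labelled as given control drinking water, drank the saccharin solution without morphine. Each group had 4 libraries, 2 male (control replicates 1 and 2, morphine replicates 3 and 4) and 2 female (control replicates 5 and 6, morphine replicates 7 and 8), and each library pooled 2 PVT dissections of 1 sex.

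Norepinephrine and dopamine act through receptors of the G protein-coupled class. The alpha-1 receptors signal through Gq proteins and phospholipase C, the alpha-2 receptors and the D2-like dopamine receptors lower cyclic AMP through Gi and Go proteins, and the beta receptors and the D1-like dopamine receptors raise it through Gs or Golf proteins. The PVT receives norepinephrine and dopamine fibers and is known for its part in arousal and in responses to drugs of abuse.

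The libraries held between 31151103 and 47582947 counts. Oprm1, the gene that carries Cre, was read at 16.8 to 32.3 CPM (the counts of a gene relative to the TMM-normalized size of its library) in the control libraries and 14.0 to 18.4 CPM in the morphine libraries (log2 difference -0.62, SE 0.19, edgeR adjusted P = 0.207), but no library of unpurified tissue was analysed here, so enrichment of MOR-expressing neurons could not be measured. All 6 markers of midline thalamic neurons were read, with a summed level of 1725 to 2208 CPM in the control group and 1217 to 2374 CPM in the morphine group. Tcf7l2 was the highest of them, at 1101 ± 202 and 946.6 ± 291 CPM (SD, n = 4 each), and weighs most in this sum. Markers of neighboring tissue were read too, and their summed levels differed between libraries. The sum over 10 choroid plexus markers ran from 16.7 to 84.4 CPM in the control group and from 115 to 381 CPM in the morphine group, that over 8 markers of telencephalic pyramidal neurons from 133 to 401 CPM and from 310.1 to 689 CPM, and that over 5 striatal markers from 357 to 612 CPM and from 188 to 1532 CPM. No marker of these 4 lists was at 0 in all libraries. Control replicate 5, labelled female, held reads of Ddx3y, Eif2s3y, Kdm5d and Uty, which lie on the Y chromosome, at 28.8% to 35.9% of the mean level of the male libraries, so its label is uncertain, and the log2 differences of the 9 receptor genes without this library are given beside the results. In RNA of pooled dissections, fewer cells of a type and less RNA per cell cannot be told apart.

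Of the 9 receptor genes, Adra1d was higher and Adra2b lower in every library of the morphine group than in any library of the control group, while the groups overlapped for the other 7. By edgeR's quasi-likelihood test over all genes, 0 of the 9 passed an adjusted P value of 0.05, against 37 of all 18939 genes (0.195%). At an unadjusted P value under 0.05, 2 of the 9 passed, against 12.1% of all genes. DESeq2 called 2 of the 9, Adra1d and Adra2b, at an adjusted P value of 0.05, against 3.29% of the 15260 genes for which it gave one, and limma-voom called 0 of the 9, against 0.121% of all genes. Among all genes, the morphine libraries were all higher than the control libraries for 3.34% and all lower for 3.21%. The log2 difference was above 0 for 4 of the 9 genes and below 0 for 5, with a median of -0.10, and over all genes it was above 0 for 51.4%, with a median of 0.0088.

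The alpha-2 subfamily held the gene that was lower in all morphine libraries, Adra2b, beside a pair of close relatives, Adra2a and Adra2c, whose groups overlapped, so the 250 bases before the start of each are shown. Sequence and coordinates are from RefSeq on GRCm38.p6, all on the + strand, 5′ to 3′, and capitals mark matches to the motifs named after the sequences. The windows are chr19:54045009-54045258 for Adra2a, chr2:127362929-127363178 for Adra2b and chr5:35278316-35278565 for Adra2c.
Adra2a: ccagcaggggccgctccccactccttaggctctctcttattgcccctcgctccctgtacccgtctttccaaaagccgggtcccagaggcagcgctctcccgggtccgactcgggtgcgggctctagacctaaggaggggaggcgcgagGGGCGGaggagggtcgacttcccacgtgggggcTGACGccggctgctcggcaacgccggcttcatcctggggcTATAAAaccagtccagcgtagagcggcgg
Adra2b: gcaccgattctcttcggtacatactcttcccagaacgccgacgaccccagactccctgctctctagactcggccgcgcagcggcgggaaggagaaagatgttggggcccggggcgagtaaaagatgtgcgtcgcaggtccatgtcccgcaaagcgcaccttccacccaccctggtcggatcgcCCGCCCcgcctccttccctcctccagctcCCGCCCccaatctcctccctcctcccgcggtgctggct
Adra2c: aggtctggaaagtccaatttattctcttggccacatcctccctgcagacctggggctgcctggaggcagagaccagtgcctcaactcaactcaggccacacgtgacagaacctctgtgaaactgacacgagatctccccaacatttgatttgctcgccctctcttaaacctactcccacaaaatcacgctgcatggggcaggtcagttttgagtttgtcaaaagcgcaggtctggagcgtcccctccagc
Both strands were searched for the GC box GGGCGG (in 32.7% of 32851 promoter windows of this length), the cyclic AMP response element TGACGTCA (1.55%), its core TGACG (17.8%), which the full element contains, the TATA box TATAAA (12.4%) and the AP-1 site TGANTCA (6.75%). Adra2b held 2 GC boxes, both read on the other strand as CCGCCC, and no other match. Adra2a held, from 5′ to 3′, 1 GC box, 1 TGACG and 1 TATAAA, and Adra2c held no match to these letters. GC boxes were not particular to Adra2b, since the window of Drd2 also held 2, and those of Adrb1 and of 1 of the 2 starts of Adra1b held 1 each. The windows of Adra2a and Adra2b were 67.6% and 66.0% G and C, that of Adra2c was 53.6%, and the median over all windows was 52.4%. The transcript used for the length of Adra2c has 1 exon and 3445 bases, more than the 3198 bases of its RefSeq span. The window of Adra2c may thus lie partly within that transcript. Of the 9 genes, 7 were in the promoter table. Adra1a and Adra1d were not matched.

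Among the alpha-1 receptors, Adra1d (chromosome 2, 131545357 to 131562497, - strand, 2 exons), which encodes the alpha-1D receptor, was read at 1.46, 3.38, 4.47 and 5.00 CPM in control replicates 1, 2, 5 and 6 and at 5.45, 10.4, 8.09 and 10.8 CPM in morphine replicates 3, 4, 7 and 8. The lowest morphine library, replicate 3, lay 0.46 CPM above the highest control library, replicate 6. The means of 3.58 ± 1.56 CPM in controls and 8.68 ± 2.46 CPM under morphine (SD, n = 4 each) correspond to a fold change of 2.43 (95% interval 1.46 to 4.03). On the log2 scale the difference was 1.28 (SE 0.33), with an adjusted P value of 0.152 by edgeR, 0.157 by limma-voom and 0.00851 by DESeq2. The exact two-sided permutation P value was 0.029, the smallest that 4 libraries against 4 allow, and 13 such tests were run, 1 for each receptor gene described here. Without control replicate 5 the difference was 1.40 (edgeR adjusted P = 0.178). With the choroid plexus, telencephalic or thalamic marker score in the edgeR model it was 0.10 (SE 0.40), 0.53 (SE 0.48) or 0.87 (SE 0.45). The gene shares its locus with the long non-coding RNAs Gm39938 and Gm14285, and whether the counting used strand is not given in the sources used here, so reads of these genes could not be separated.

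Adra1b (chromosome 11, 43774605 to 43901250, - strand), which encodes the alpha-1B receptor, had the highest level per length of the 3 alpha-1 genes in every library. It was read at 26.1, 37.0, 22.4 and 25.4 CPM in control replicates 1, 2, 5 and 6 and at 27.6, 24.0, 22.8 and 26.0 CPM in morphine replicates 3, 4, 7 and 8. Apart from control replicate 2, all libraries lay between 22.4 and 27.6 CPM. The log2 difference was -0.14 (SE 0.15, 95% interval -0.47 to 0.19, edgeR adjusted P = 0.713), and -0.25 without control replicate 5. It was 0.029 (SE 0.11) without control replicate 2 and 0.0093 (SE 0.24) with the telencephalic marker score in the edgeR model. Adra1a (chromosome 14, 66635251 to 66771240, + strand), the gene of the alpha-1A receptor, was read at 8.61, 10.1, 6.34 and 12.3 CPM in the control libraries, in the same order, and at 5.71, 9.23, 8.35 and 8.90 CPM in the morphine libraries. The groups overlapped, with a log2 difference of -0.21 (SE 0.21, 95% interval -0.68 to 0.26, edgeR adjusted P = 0.693). It was -0.37 without control replicate 5, -0.07 without control replicate 6 and -0.08 without morphine replicate 3. With the telencephalic, choroid plexus or thalamic marker score in the edgeR model it was -0.80 (SE 0.25), -0.74 (SE 0.31) or -0.35 (SE 0.32), with adjusted P values of 0.634, 1.0 and 0.932. In the model without a score, both intervals lie below the difference found for Adra1d.

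**Figure D1:**
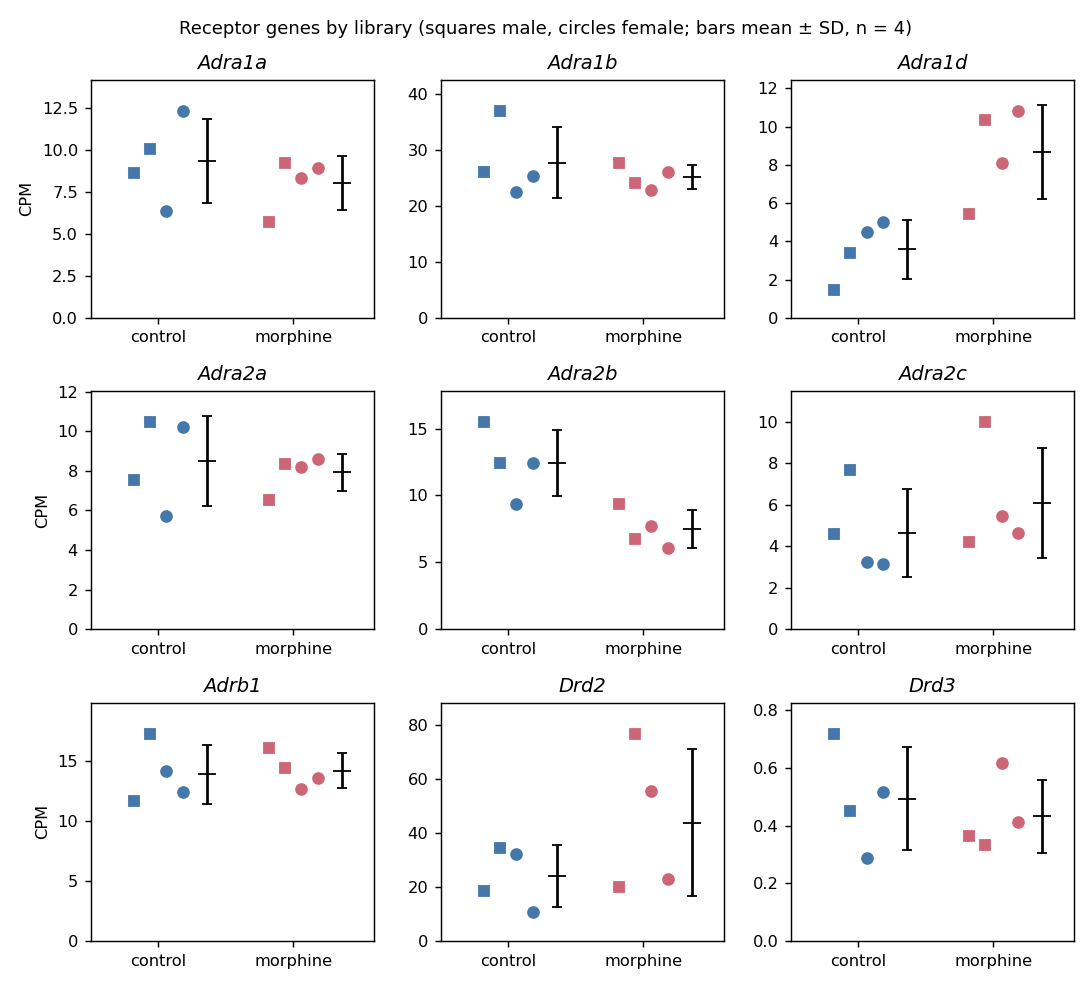
Level in CPM of the 9 receptor genes, one panel per gene with its own linear axis from 0. Each point is a library, squares are male and circles female by the labels, blue is control and red is morphine, and the bars give mean ± SD over the 4 libraries of a group. The groups do not overlap for Adra1d (higher in morphine) and Adra2b (lower in morphine, by 0.00876 CPM between the nearest libraries).

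Per length of transcript, Adra1d made up 6.74%, 10.9%, 20.9% and 18.9% of the summed level of the 3 alpha-1 genes in control replicates 1, 2, 5 and 6 and 21.6%, 35.0%, 31.0% and 34.8% in morphine replicates 3, 4, 7 and 8. Its mean share was 14.4 ± 6.68% in controls and 30.6 ± 6.29% under morphine (SD, n = 4 each), and the groups did not overlap. The share of Adra1b was 68.6 ± 7.34% in the control group and 56.3 ± 7.99% in the morphine group, and that of Adra1a was 17.0 ± 3.50% and 13.1 ± 1.95% (SD, n = 4 each), with overlap between the groups for both. Adra1b thus held more than 50% of the alpha-1 level in all 8 libraries. These shares rest on the same counts as the differences above and are no second test of them.

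Among the alpha-2 receptors, Adra2b (chromosome 2, 127363179 to 127367221, + strand, 1 exon), which encodes the alpha-2B receptor, was read at 15.5, 12.4, 9.40 and 12.4 CPM in control replicates 1, 2, 5 and 6 and at 9.39, 6.78, 7.73 and 6.04 CPM in morphine replicates 3, 4, 7 and 8. The groups only just failed to overlap, since control replicate 5 and morphine replicate 3 differed by 0.00876 CPM. With upper-quartile factors or with no normalization factors these libraries changed places and the groups overlapped (gaps of -0.00675 and -0.38 CPM). The means of 12.4 ± 2.48 CPM in controls and 7.49 ± 1.44 CPM under morphine (SD, n = 4 each) correspond to a ratio of 0.602 (95% interval 0.457 to 0.792). On the log2 scale the difference was -0.73 (SE 0.18), with an adjusted P value of 0.138 by edgeR, 0.151 by limma-voom and 0.00986 by DESeq2, and an exact two-sided permutation P value of 0.029. Without control replicate 5 it was -0.86 (edgeR adjusted P = 0.0925). With the choroid plexus, telencephalic or thalamic marker score in the edgeR model it was -0.38 (SE 0.27), -0.59 (SE 0.27) or -0.43 (SE 0.22).

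Adra2a (chromosome 19, 54045259 to 54048982, + strand), the gene of the alpha-2A receptor, which also acts as an autoreceptor of norepinephrine neurons, was read at 7.56, 10.5, 5.71 and 10.2 CPM in the control libraries and at 6.52, 8.36, 8.22 and 8.61 CPM in the morphine libraries, in the order given above. All morphine libraries lay within the control range, and the log2 difference was -0.10 (SE 0.20, 95% interval -0.53 to 0.33, edgeR adjusted P = 0.872), and -0.26 without control replicate 5. With the telencephalic, choroid plexus or thalamic score in the edgeR model it was -0.48 (SE 0.28), -0.52 (SE 0.30) or -0.18 (SE 0.29). Adra2c (chromosome 5, 35278566 to 35281763, + strand), the gene of the alpha-2C receptor, was read at 4.56, 7.68, 3.25 and 3.12 CPM in the control libraries and at 4.19, 9.96, 5.46 and 4.65 CPM in the morphine libraries. Morphine replicate 4 and control replicate 2 were the highest of their groups. The log2 difference was 0.38 (SE 0.33, 95% interval -0.36 to 1.11, edgeR adjusted P = 0.677), 0.03 without morphine replicate 4, 0.73 without control replicate 2 and 0.22 without control replicate 5.

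Per length, Adra2b held 46.4 ± 6.39% of the summed alpha-2 level in controls and 32.9 ± 8.26% under morphine (SD, n = 4 each). Its share ran from 38.1% to 53.4% and from 24.8% to 44.0%, so the groups overlapped. Adra2b had the highest level per length of the 3 genes in all 4 control libraries, at 1.09 to 1.86 times that of Adra2a. In the morphine group this ratio was 1.31 in replicate 3 and between 0.64 and 0.859 in the other three libraries. The ratio of Adra1d to Adra2b per length ran from 0.196 to 0.986 in the control group and from 1.20 to 3.71 in the morphine group. This pair was picked because one gene was higher and the other lower in all morphine libraries, so the ratio adds no evidence to theirs.

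**Figure D2:**
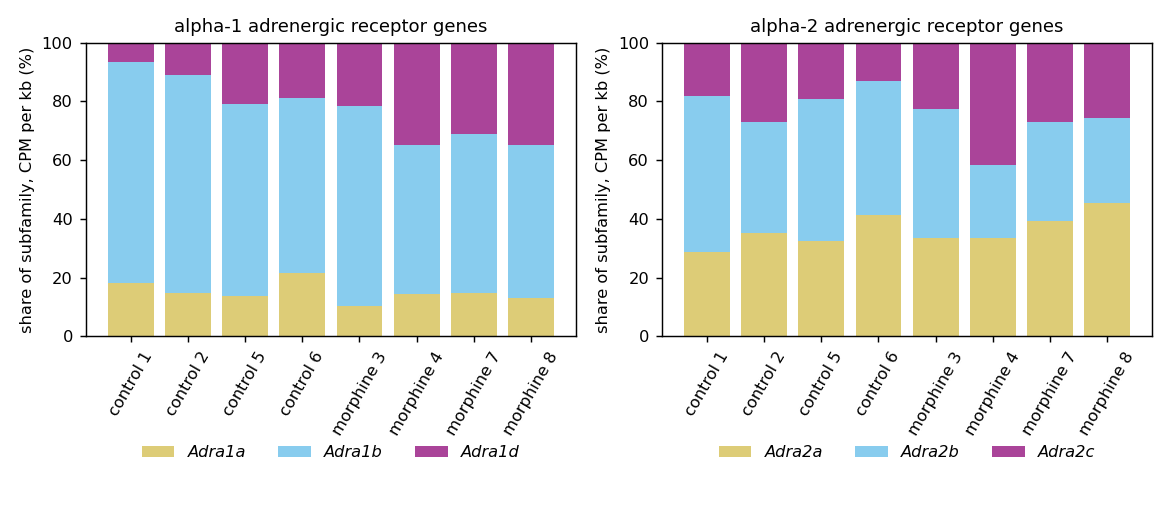
Share of each gene in the summed level of its subfamily (CPM per kb of transcript, in %), one stacked bar per library, with alpha-1 genes on the left and alpha-2 genes on the right. The share of Adra1d is 6.74% to 20.9% in the control libraries and 21.6% to 35.0% in the morphine libraries, and that of Adra2b is 38.1% to 53.4% and 24.8% to 44.0%.

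Adrb1 (chromosome 19, 56722117 to 56725150, + strand), the gene of the beta-1 receptor, had the smallest ratio of highest to lowest library of the 9 genes. It was read at 11.7, 17.2, 14.1 and 12.4 CPM in control replicates 1, 2, 5 and 6 and at 16.1, 14.4, 12.6 and 13.5 CPM in morphine replicates 3, 4, 7 and 8, so that this ratio was 1.48. The means were 13.9 ± 2.47 CPM and 14.2 ± 1.47 CPM (SD, n = 4 each), and the log2 difference was 0.03 (SE 0.14, 95% interval -0.28 to 0.35, edgeR adjusted P = 0.956), also 0.03 without control replicate 5. Adrb3, the gene of the beta-3 receptor, had 8 to 35 counts per library, and counting error at its mean count is 23.7% of the value.

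The D2-like receptor gene Drd2 (chromosome 9, 49340360 to 49408177, + strand, 8 exons) had the largest SD relative to its mean of the 9 genes in both groups (47.6% and 62.1%). It was read at 18.4, 34.5, 32.3 and 10.6 CPM in control replicates 1, 2, 5 and 6 and at 20.1, 76.7, 55.6 and 22.9 CPM in morphine replicates 3, 4, 7 and 8. Morphine replicates 4 and 7 lay above all control libraries, whereas morphine replicates 3 and 8 lay within the control range. Its means were 23.9 ± 11.4 CPM in controls and 43.8 ± 27.2 CPM under morphine (SD, n = 4 each). The log2 difference was 0.87 (SE 0.45, 95% interval -0.11 to 1.85, edgeR adjusted P = 0.481), 0.45 without morphine replicate 4 and 1.03 without control replicate 5. The exact permutation P value was 0.229. At its locus lies Gm46111, whose reads could not be separated from those of Drd2.

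The 4 libraries with the highest levels of Drd2 were, in the same order, the 4 with the highest sum of striatal markers, of which Drd1a, the table's name for the D1 receptor gene Drd1, is one. Ppp1r1b, which encodes the phosphatase inhibitor DARPP-32 of striatal medium spiny neurons, was read at 99.5, 170, 130 and 73.5 CPM in control replicates 1, 2, 5 and 6 and at 51.5, 435, 374 and 28.3 CPM in morphine replicates 3, 4, 7 and 8. Adora2a, the adenosine receptor of the D2-expressing medium spiny neurons, ran from 3.64 to 28.9 CPM in the control group and from 0.288 to 79.4 CPM in the morphine group. The sum over the 5 striatal markers was highest in morphine replicates 4 and 7 (1532 and 1267 CPM) and lowest in morphine replicates 8 and 3 (188 and 282 CPM), with the control libraries between them. Among the other 4 libraries the orders differed, since morphine replicates 8 and 3, with the lowest striatal sums, held more Drd2 (22.9 and 20.1 CPM) than control replicates 1 and 6 (18.4 and 10.6 CPM). The genes of this list had log2 differences above 0 in 5 of 5 cases, with a median of 0.68, and 0 passed an unadjusted P value of 0.05. With the mean of these markers in the edgeR model, an alternative added after the data were seen, the difference of Drd2 was 0.74 (SE 0.25, adjusted P = 0.288) and that of Adra2c was 0.35 (SE 0.28). With the planned scores it was 0.28 for Drd2 (SE 0.54) with the thalamic markers, 1.35 (SE 1.03) with the telencephalic and 1.32 (SE 0.91) with the choroid plexus markers.

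**Figure D3:**
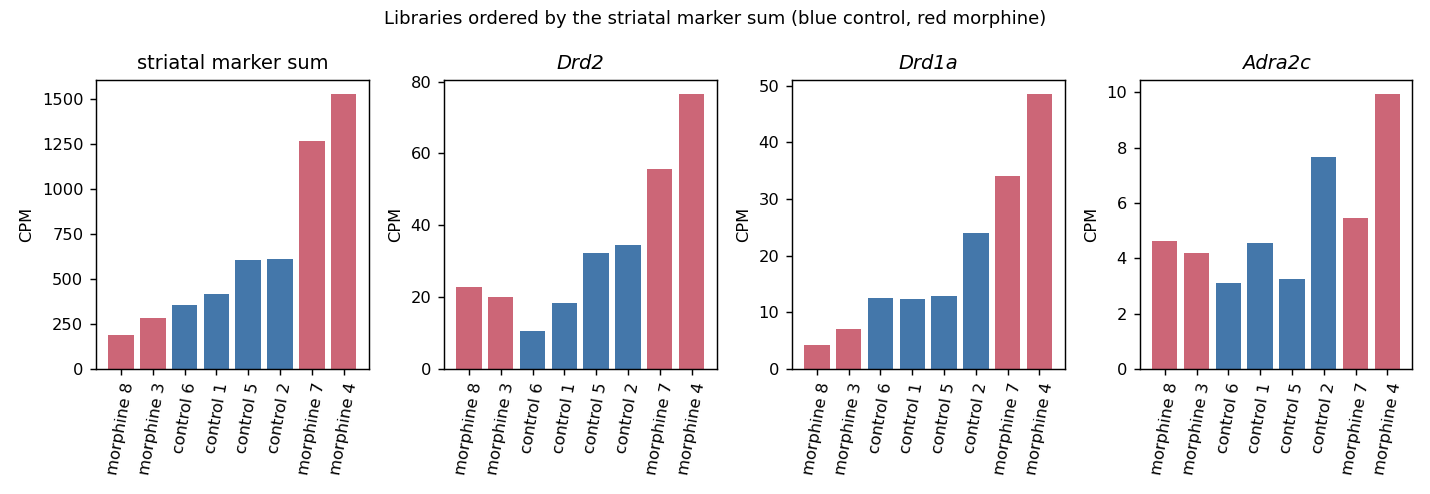
Summed level of 5 striatal marker genes and levels of Drd2, Drd1a and Adra2c, all in CPM on linear axes from 0, one bar per library, with the libraries in the order of the striatal sum in every panel (blue control, red morphine). Morphine replicates 7 and 4 are the highest libraries for the sum (1267 and 1532 CPM) and for Drd2 (55.6 and 76.7 CPM), and for Adra2c control replicate 2 (7.68 CPM) lies between them.

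Drd3 (chromosome 16, 43754015 to 43825982, + strand), the gene of the D3 receptor, had 11 to 28 counts per library. It was read at 0.718, 0.450, 0.287 and 0.516 CPM in control replicates 1, 2, 5 and 6 and at 0.365, 0.333, 0.617 and 0.411 CPM in morphine replicates 3, 4, 7 and 8. Counting error at the mean count is 23.7% of the value, beside an SD of 36.2% and 29.6% of the mean in the control and morphine groups. The log2 difference was -0.19 (SE 0.35, 95% interval -0.96 to 0.58, edgeR adjusted P = 0.860), and -0.40 without control replicate 5.

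**Figure D4:**
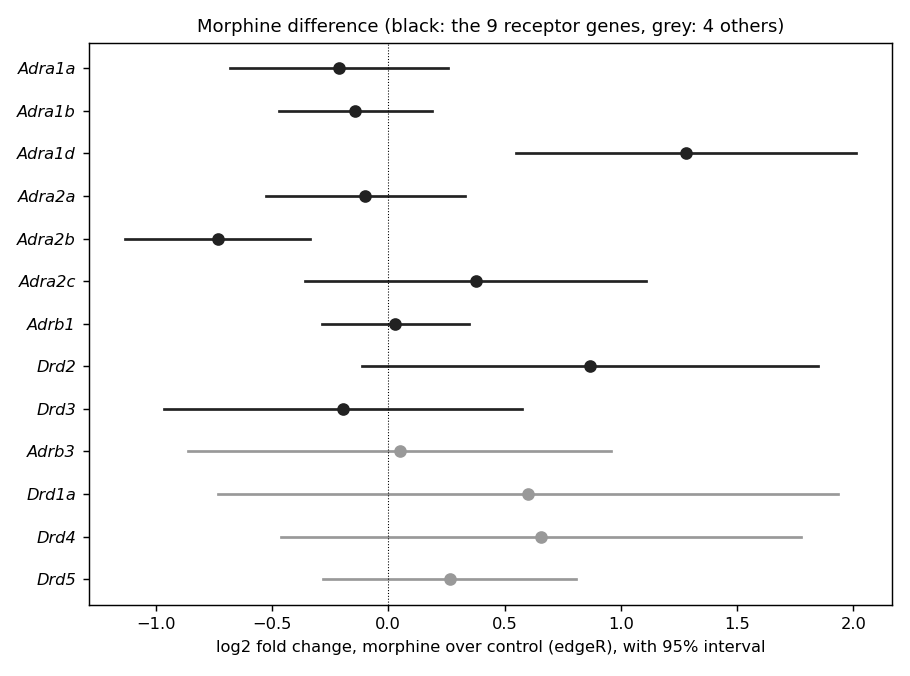
Log2 fold change of morphine over control by edgeR (points) with its 95% interval (lines) for the 9 receptor genes in black and 4 other catecholamine receptor genes in grey, with a dotted line at 0. The intervals of Adra1d (0.55 to 2.01) and Adra2b (-1.13 to -0.34) leave out 0, before any adjustment over all genes, and all other intervals include it.

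The 4 other catecholamine receptor genes described were Drd1a and Drd5 of the D1-like class, Drd4 of the D2-like class and Adrb3. Their groups overlapped and 0 of 4 passed an adjusted P value of 0.05 by edgeR or DESeq2, with 0 also at an unadjusted P value of 0.05. Drd1a was read at 12.4, 24.1, 12.9 and 12.5 CPM in control replicates 1, 2, 5 and 6 and at 7.14, 48.6, 34.1 and 4.30 CPM in morphine replicates 3, 4, 7 and 8, a log2 difference of 0.60 (SE 0.61, edgeR adjusted P = 0.697). The morphine libraries thus held both the highest and the lowest values of Drd1a. Drd5 ran from 3.94 to 6.08 CPM in the control group and from 3.84 to 9.04 CPM in the morphine group, and Drd4 did not exceed 12 counts in any library.

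Per kb of transcript, with the length of the matched GENCODE transcript, the mean level over all 8 libraries was 13.3 CPM per kb for Drd2, 8.67 for Adra1b, 4.74 for Adrb1, 3.23 for Adra1d, 2.53 for Adra2b, 2.29 for Adra2a, 2.10 for Adra1a, 1.56 for Adra2c and 0.318 for Drd3. Drd2 lay above 71.8% of the 18497 genes with a length, Adra1b above 63.8% and Drd3 above 28.6%. In the control group alone the order was another, with Adra1d (1.88) below Adra2b (3.16), Adra2a (2.36) and Adra1a (2.26), and Drd2 (9.40) beside Adra1b (9.10). Most neighbors in the order of the 9 genes over all libraries were not cleanly apart. Adra1b (7.36 to 12.1 CPM per kb) did lie above Adrb1 (3.95 to 5.83) in every library. Drd2 exceeded Adra1b in 5 of 8 libraries, Adra1d exceeded Adra2b in 4, Adra2b exceeded Adra2a in 5 and Adra2a exceeded Adra1a in 7. Adra2c and Drd3 were the only neighbors in the order of these 13 receptor genes whose ranges over the libraries did not overlap (0.906 to 2.89 and 0.197 to 0.493 CPM per kb). Drd1a, at 5.53 CPM per kb, lay between Adra1b and Adrb1 in this order, and Drd5, at 1.83, between Adra1a and Adra2c.

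**Figure D5:**
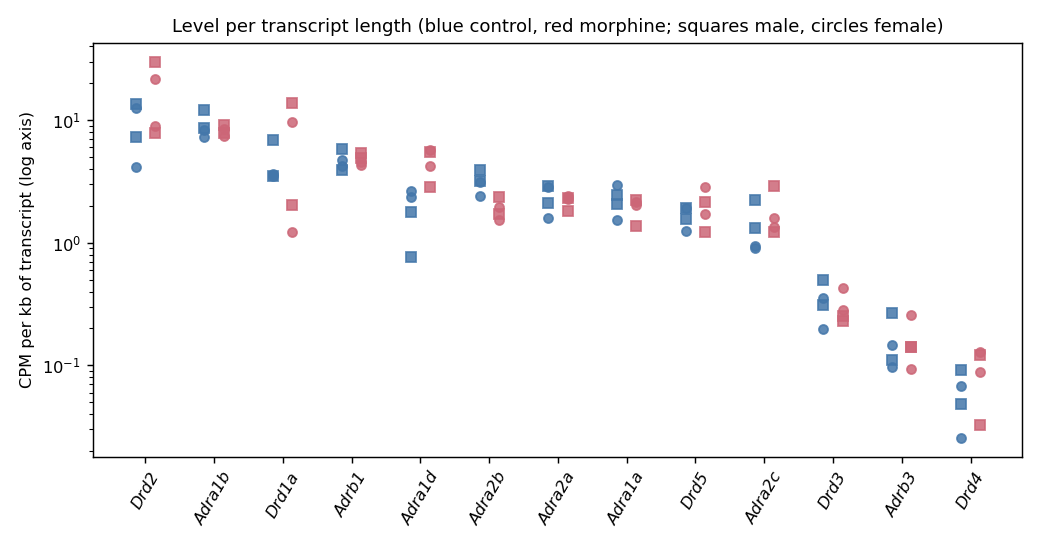
Level of 13 catecholamine receptor genes in CPM per kb of transcript on a log axis, ordered by the mean over all 8 libraries, with one point per library (blue control, red morphine, squares male, circles female). Drd2 (13.3 CPM per kb on average) and Adra1b (8.67) are highest, a step separates Adra2c (1.56) from Drd3 (0.318), and Drd4 is lowest (0.0753).

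The morphine difference was compared between the sexes for each gene. The interaction of sex and morphine passed an adjusted P value of 0.05 for 0 of the 9 genes by edgeR (0 of all genes, 0.0%) and by DESeq2 (4 of all genes, 0.0211%), and an unadjusted P value of 0.05 for 0 of the 9 by edgeR, against 1.72% of all genes (325 genes). With 2 libraries per sex and group, the log2 difference in females minus that in males ran from -0.70 (SE 0.54) for Adra1d to 1.07 (SE 0.74) for Drd3. For Drd2 this value was -0.00045 (SE 0.91), an interval too wide to compare the sexes, and the uncertain label of control replicate 5 touches all of these values.

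Choroid plexus and telencephalic markers were read beside Adra1d and Adra2b in every library. The marker lists were chosen with earlier results of these data known. The choroid plexus sum was 16.7, 36.2, 32.1 and 84.4 CPM in control replicates 1, 2, 5 and 6 and 144, 280.4, 115 and 381 CPM in morphine replicates 3, 4, 7 and 8, with no overlap between the groups. All 10 of its genes had log2 differences above 0 (median 2.24), 9 at an unadjusted P value under 0.05, 7 called by DESeq2 and 0 by edgeR. Ttr, the thyroid hormone carrier of the choroid plexus, was at 17.0 ± 19.1 and 174 ± 106 CPM (SD, n = 4 each) and passed by DESeq2 (adjusted P = 0.0297) but not by edgeR (adjusted P = 0.133). All 8 telencephalic genes were above 0 as well (median 1.43), 5 at an unadjusted P value under 0.05, 3 called by DESeq2 and 0 by edgeR. Neurod6, a transcription factor of cortical and hippocampal pyramidal neurons, had a log2 difference of 3.32 (edgeR adjusted P = 0.0569). Of the 6 thalamic genes 1 was lower at an unadjusted P value under 0.05, Gbx2. It was at 68.9 ± 9.51 and 42.7 ± 15.3 CPM (SD, n = 4 each), a log2 difference of -0.69 (adjusted P = 0.227 by edgeR and 0.0643 by DESeq2). With the mean of the choroid plexus markers in the edgeR model, the difference of Adra1d was 0.10 (SE 0.40) and that of Adra2b was -0.38 (SE 0.27). With the telencephalic markers they were 0.53 (SE 0.48) and -0.59 (SE 0.27), and with the thalamic markers, all 6 of which had log2 differences below 0 (median -0.25, 0 called), they were 0.87 (SE 0.45) and -0.43 (SE 0.22). With these scores 0 of the 9 genes passed, as without them, and over all genes 0, 1 and 0 passed with the choroid plexus, telencephalic and thalamic scores. Since the choroid plexus sums of the groups do not overlap, what goes with these markers and what goes with morphine cannot be told apart.

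The 3 genes whose pattern over the 8 libraries was most like that of Adra1d, by the root mean square difference of centred log2 CPM among 12988 genes with a mean of at least 1 CPM, were Zeb2 (0.197), a transcription factor, Nrgn (0.254), a calmodulin-binding protein of forebrain neurons, and Gpm6b (0.274), a membrane protein of neurons and glia. Their log2 differences, which the choice by likeness ties to that of Adra1d, were 1.30, 1.46 and 1.22. For Adra2b they were Gm2721 (0.112), Scml4 (0.132) and Etnk2 (0.134), an ethanolamine kinase, with log2 differences of -0.56, -0.63 and -0.67, tied in the same way to that of Adra2b.

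Genes that act downstream of these receptors were read from fixed lists, which were chosen with earlier results of these data known. Of the 7 genes of the alpha-1 arm (Gq proteins and phospholipase C beta), 0 passed at an adjusted or unadjusted P value of 0.05, with a median log2 difference of -0.03 and the lowest P value for Plcb4, at -0.29 (adjusted P = 0.551 by edgeR). Of the 5 Gi, Go and Gz alpha subunits, on which alpha-2 and D2-like receptors act, 0 were called and 1 was lower at an unadjusted P value under 0.05, Gnai2, which encodes a Gi alpha subunit (136 ± 15.9 and 116 ± 8.84 CPM, SD, n = 4 each, log2 difference -0.24, edgeR adjusted P = 0.406). The Gs and Golf subunits Gnas and Gnal had log2 differences of -0.04 and 0.05 (edgeR adjusted P = 0.907 and 0.887). Of the 4 GIRK subunits, the potassium channels opened by Gi-coupled receptors, 0 were called by edgeR and 1, Kcnj3, by DESeq2 (58.4 ± 3.05 and 73.7 ± 3.86 CPM, SD, n = 4 each, log2 difference 0.34, edgeR adjusted P = 0.143, DESeq2 adjusted P = 0.00927).

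Of the 9 adenylyl cyclases, which make cyclic AMP, 1 was called by edgeR. Adcy1, which is stimulated by calcium and calmodulin, rose from 356 ± 40.5 to 570.0 ± 30.6 CPM (SD, n = 4 each), with a log2 difference of 0.68 (SE 0.10, edgeR adjusted P = 0.0416). In 11 of 21 alternatives it no longer passed, among them the fits without control replicate 1, 2 or 5 or morphine replicate 4, 7 or 8 (edgeR adjusted P = 0.0507 to 0.132, log2 difference 0.61 to 0.68), filterByExpr (0.0517) and the striatal, telencephalic, choroid plexus and thalamic scores (0.0513, 0.638, 1.0 and 0.904). Its log2 difference was 0.46 and 0.47 with the telencephalic and choroid plexus scores, 0.70 and 0.68 with the thalamic and striatal scores and 0.66 with filterByExpr. Of the 12 RGS proteins, which shorten G protein signals, 0 were called by edgeR and 2 by DESeq2. Rgs14 was at 17.4 ± 3.25 and 39.6 ± 12.1 CPM (SD, n = 4 each), a log2 difference of 1.18 (edgeR adjusted P = 0.0569, DESeq2 adjusted P = 6.78e-05), and Rgs16 had a log2 difference of -0.52 (edgeR adjusted P = 0.161, DESeq2 adjusted P = 0.034). Of the 7 receptor kinases and arrestins, 0 were called by either tool, 5 of 7 had log2 differences below 0, and Arrb1, the gene of beta-arrestin 1, had the lowest P value, at -0.23 (edgeR adjusted P = 0.379).

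Of the 11 genes that make, carry or break down the catecholamines, 0 were called by edgeR and 1 by DESeq2. Dbh, which encodes the enzyme that turns dopamine into norepinephrine, was at 0.112 ± 0.0673 CPM in the control group and 0.473 ± 0.158 CPM in the morphine group (SD, n = 4 each), a log2 difference of 2.06 (edgeR adjusted P = 0.114, DESeq2 adjusted P = 0.026), so it was read below 1 CPM in both groups. Maoa and Maob, the genes of the monoamine oxidases, had log2 differences of -0.44 and -0.88 (edgeR adjusted P = 0.285 and 0.25). Th, which encodes the first enzyme of catecholamine synthesis, was at 29.9 ± 27.7 and 35.4 ± 22.2 CPM (SD, n = 4 each), a spread within each group far larger than the difference between them (log2 0.24, edgeR adjusted P = 0.897).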

How the data were processed

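Per the labels and the study's methods, RNA bound by EGFP-L10a was purified from 8 pools of 2 PVT dissections, and directional libraries were sequenced in pairs of short reads. The authors deposited 1 table of raw counts, whole numbers for each of 24488 RefSeq transcripts in each library, on mm10. The tool that made this table and its use of strand are not given in the sources used here, while the methods name Salmon, tximport and DESeq2. Each gene was represented by its row with the highest total (3532 of 18939 genes have several rows, none of the 9 receptor genes), and 0 columns were left without a sample.

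Groups and replicate numbers came from the labels, which give no sequencing batch. Reads shared between rows and PCR copies are not marked, so counting errors cover counting only. P values set the difference of the groups against the spread between these pools, and the spread between single mice is not seen. CPM were computed from the deposited counts with TMM factors. All genes were tested with edgeR 4.0.16 (quasi-likelihood, default settings, condition only, R 4.3.3) and adjusted by Benjamini-Hochberg at 0.05, and sex with its interaction was fitted in a second model. Intervals are at 95%. Single genes were compared by exact two-sided permutation of mean log2(CPM + 0.5) over 70 arrangements. Alternatives were DESeq2 1.42.0, limma-voom (limma 3.58.1), other factors, filters, sex or a marker score in the model, summed rows, and each library left out. Tests were tried on simulated data. Levels per kb used GENCODE M21 transcripts of GRCm38, and positions and promoters came from RefSeq GRCm38.p6. All 9 receptor genes, 4 other receptors and, of each pathway list, the called genes or else the gene with the lowest P value are named. Gnas, Rgs16, Th, Maoa, Maob, Ppp1r1b, Adora2a, Ttr, Neurod6, C1ql2, Slc6a3, Gbx2, Tcf7l2 and Prox1 were chosen after their values were seen. The fixed lists held 2 more genes, which are not reported here. The receptor genes and all lists were chosen with earlier results of these data known. Figures were drawn with matplotlib 3.10.9.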

Additional observations from a re-analysis of the deposited data

How the results depend on the processing

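No paired analysis was possible because the control libraries are numbered 1, 2, 5 and 6 and the morphine libraries 3, 4, 7 and 8, so the groups share no replicate number. The number of the 9 receptor genes called was 0 by edgeR and 2 by DESeq2 (Adra1d and Adra2b), and 0 under every other alternative, including each of the 8 fits without a library. Over the 21 alternatives per gene (189 in all), the log2 difference changed sign in 12, among 5 genes whose intervals include 0. For Adra1b it was 0.0093 with the telencephalic score and 0.029 without control replicate 2, for Adra2a 0.018 without control replicate 2, for Adra2c -0.22 with the thalamic score, for Adrb1 -0.0085 and -0.029 with the choroid plexus and thalamic scores and -0.056, -0.039 and -0.036 without control replicate 1, control replicate 6 and morphine replicate 3, and for Drd3 0.21 and 0.18 with those scores and 0.031 without control replicate 1. With the telencephalic score Adrb1 was at 0.22 and Drd3 at -0.30. Adra1a, Adra1d, Adra2b and Drd2 kept their sign throughout, but not their size. With a marker score in the model Adra1d ran from 0.10 to 1.28 and Adra2b from -0.73 to -0.38. Adra1a then ran from -0.80 to -0.22 and Drd2 from 0.28 to 1.35. With a library left out, Adra1a ran from -0.37 to -0.07, Adra1b from -0.25 to 0.029, Adra2a from -0.26 to 0.018, Adrb1 from -0.056 to 0.15, Drd3 from -0.42 to 0.031, Adra1d from 1.01 to 1.46 (edgeR adjusted P = 0.104 to 0.384), Adra2b from -0.86 to -0.62 (0.0821 to 0.364) and Drd2 from 0.45 to 1.11 (0.256 to 0.786). Among the 9 other alternatives without a marker score, Adra1d ran from 1.26 to 1.38 (adjusted P = 0.00851 to 0.195) and Adra2b from -0.76 to -0.73 (0.00986 to 0.151). Adding 1 CPM in place of 0.5 CPM left the exact tests of the 9 receptor genes on their side of 0.05. For Adra1d and Adra2b this could not come out otherwise, since an added constant keeps groups that do not overlap apart. The exact tests were not run with upper-quartile factors or with no factors, under which the groups of Adra2b overlapped. Over all genes the number called was 37 by edgeR, 502 by DESeq2, 110 with sex in the model, 14 with filterByExpr, 15 with at least 10 counts in every library, 22 with summed rows, 23 by limma-voom, 19, 1, 0 and 0 with the striatal, telencephalic, choroid plexus and thalamic scores, and 0 to 77 with a library left out. The sex interaction, run also with DESeq2, with filterByExpr and without each library, was called for 0 of the 9 genes in each of these. Drd3, Drd4 and Adrb3 had 3 to 35 counts per library, so counting error adds to the spread between pools.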

Other observations

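Other cell types that a gross dissection of the PVT could hold were read from fixed marker lists as well, also chosen with earlier results of these data known. Of 5 medial habenula markers all had log2 differences above 0 (median 0.44) and 0 were called, and their sum ran from 18.2 to 29.4 CPM in the control group and from 24.9 to 39.4 CPM in the morphine group. Of 6 markers of hippocampal fields 5 were above 0 (median 0.71), and C1ql2, a synaptic organizer of the dentate gyrus, was called by DESeq2 (adjusted P = 0.033) and not by edgeR (adjusted P = 0.204). The 1 hippocampal marker below 0 was Prox1, at 143.5 ± 21.0 and 123.6 ± 14.8 CPM (SD, n = 4 each), a log2 difference of -0.22. The 7 oligodendrocyte markers summed to between 83.9 and 1351 CPM per library, 7 of 7 had log2 differences above 0 (median 0.74), and 0 passed an unadjusted P value of 0.05. The catecholamine neuron markers, among them Th and the dopamine transporter gene Slc6a3, summed to between 24.8 and 151 CPM in the control group and between 17.3 and 135 CPM in the morphine group, and were highest in control replicate 5, with 5 of 6 above 0 (median 0.78). Of 3 GABA neuron markers 1 was above 0, of 7 astrocyte markers 6, of 4 ependymal markers 3 and of 3 markers of oligodendrocyte precursors 3, with 0 called by edgeR. The GABA neuron markers summed to between 993 and 1404 CPM in the control group and between 741 and 1224 CPM in the morphine group. Microglial, endothelial and mural markers summed to no more than 10.6 CPM in any library.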
